A study of Mus musculus with 8 samples.

Results

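Plasminogen activation turns the circulating zymogen plasminogen into plasmin, a protease that dissolves fibrin and degrades matrix around cells. Urokinase, bound to its receptor on the cell surface, and tissue plasminogen activator cleave plasminogen, serpins hold the activators and plasmin in check, and the annexin A2 and S100A10 tetramer offers plasminogen a docking site. In liver, plasminogen and its plasma inhibitor are made mainly by hepatocytes, while the urokinase receptor is known from leukocytes and activated endothelium. The 8 genes described here were chosen by name around Plaur, the urokinase receptor: Plaur, Plau, Plat, Plg, Serpine2, Serpinf2, Anxa2 and S100a10. All 8, each annotated as protein-coding, were found among 53816 gene IDs in each library, and all 8 passed the filter of 1 TPM on average (transcripts per 1000000, a level scaled for depth and length), which 13055 genes passed.

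Whole-liver RNA of 8 mice was sequenced. All had undergone bile duct ligation, surgery that obstructs bile outflow and injures the liver through cholestasis. Of these, 4 are labelled as overexpressing Myc, with the genotype given as LSEC Myc overexpression and the source as endothelial, and 4 as wild-type (WT) controls with the same surgery. The sources used here do not give the promoter or Cre line behind the overexpression, nor age, sex or time after surgery, and no mouse without ligation was analysed here. The libraries held 5.29 to 6.74 Gb of aligned bases, as derived from the most frequent ratio of the deposited coverage and FPKM values, at which 14.8% to 16.1% of genes stood. The gene of the labels did not follow them: Myc stood at 339, 356, 25.6 and 249 TPM in Myc-labelled replicates 1 to 4, against 272, 207, 554 and 89.2 TPM in control replicates 1 to 4. The libraries are therefore called Myc-labelled, and each direction below rests on those labels. Housing, litter and pairing are not stated, so the error given is the spread between these libraries.

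The members were chosen with their values in these 8 libraries known. Their differences are therefore given as descriptions, with the standard error and 95% interval of a limma fit on log2(TPM + 1) over all 13055 genes and with no p. For the background, limma with Benjamini-Hochberg adjustment put 0 of 13055 genes (0%) past an adjusted p of 0.05 on the higher side and 0 (0%) on the lower side. Without adjustment, 165 genes (1.26%) were higher and 78 (0.597%) lower at a p under 0.05. The adjusted count stayed at 0 in the alternatives that were run, except that array weights gave 1 lower gene, Gm43305, which is not a member and is named here after its value was seen. Groups did not overlap, with every Myc-labelled value above every control value, in 122 genes (0.935%), and with every Myc-labelled value below every control value in 42 genes (0.322%). Of the 8 members, 1 stood on the first side, Plaur, and 1 on the second, Plg.

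The stretches before the RefSeq starts of Plaur, Anxa2 and Serpinf2 are shown. Plaur and Anxa2 had the largest differences among the members, while Serpinf2 differed little and it is known mainly from hepatocytes. Of the 8 members, 4 matched the RefSeq promoter table by symbol. Each line gives the 250 bases before the start in that table, 5′ to 3′ on the gene's strand (GRCm38.p6). Matches to the AP-1 motif TGANTCA are in capitals. These starts can differ from the gene coordinates given below. The Anxa2 window ends at 69453682, inside the gene coordinates, which begin at 69453620. The Serpinf2 window begins at 75439502, inside minus-strand gene coordinates that run to 75439591. AP-1 is a dimer of Fos and Jun family proteins.
Plaur, chr7:24462233-24462482, plus strand: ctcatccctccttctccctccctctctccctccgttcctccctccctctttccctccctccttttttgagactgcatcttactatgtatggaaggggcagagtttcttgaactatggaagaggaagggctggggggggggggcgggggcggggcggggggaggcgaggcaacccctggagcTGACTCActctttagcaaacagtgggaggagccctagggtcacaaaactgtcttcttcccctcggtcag
Anxa2, chr9:69453433-69453682, plus strand: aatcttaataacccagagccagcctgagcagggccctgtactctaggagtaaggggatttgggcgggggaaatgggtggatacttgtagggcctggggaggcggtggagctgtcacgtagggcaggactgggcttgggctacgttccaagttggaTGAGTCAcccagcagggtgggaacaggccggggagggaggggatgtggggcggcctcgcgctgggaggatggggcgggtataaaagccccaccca
Serpinf2, chr11:75439502-75439751, minus strand: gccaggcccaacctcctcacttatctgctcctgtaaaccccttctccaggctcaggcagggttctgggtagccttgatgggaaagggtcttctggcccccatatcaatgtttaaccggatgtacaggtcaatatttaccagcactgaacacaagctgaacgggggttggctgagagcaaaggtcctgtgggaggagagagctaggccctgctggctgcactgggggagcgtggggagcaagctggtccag

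The motif was chosen after these sequences had been read, and it equals its own reverse complement, so that both strands give the same match. In Plaur the match TGACTCA began 69 bases upstream of the RefSeq start, and in Anxa2 the match TGAGTCA began 95 bases upstream of it. The windows of Serpinf2 and Serpine2 held no match. The 250 bases taken for Serpine2, chr1:79858666-79858915, lie inside the gene coordinates given below. Of all 32851 windows of 300 bases in the table, 7.81% held the motif. The Myc E-box CACGTG, which 7.15% of windows held, was in none of the 4 members' windows. A match describes letters only, and no binding was measured in these livers.

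Levels in TPM, which are scaled for transcript length, spanned the hepatocyte-derived plasma proteins and the low cell-surface genes. Plg and Serpinf2 averaged 1592 and 752 TPM over the 8 libraries, followed by S100a10 at 163, Anxa2 at 68.4 and Plaur at 7.75 TPM. Plat, Serpine2 and Plau were lowest, at 2.91, 2.22 and 1.54 TPM. Each of the first 5 steps in this order held in 8 of 8 libraries. Plat exceeded Serpine2 in 6 of 8 libraries and Serpine2 exceeded Plau in 7 of 8, so these low neighbours were not apart beyond their spread.

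**Figure D1:**
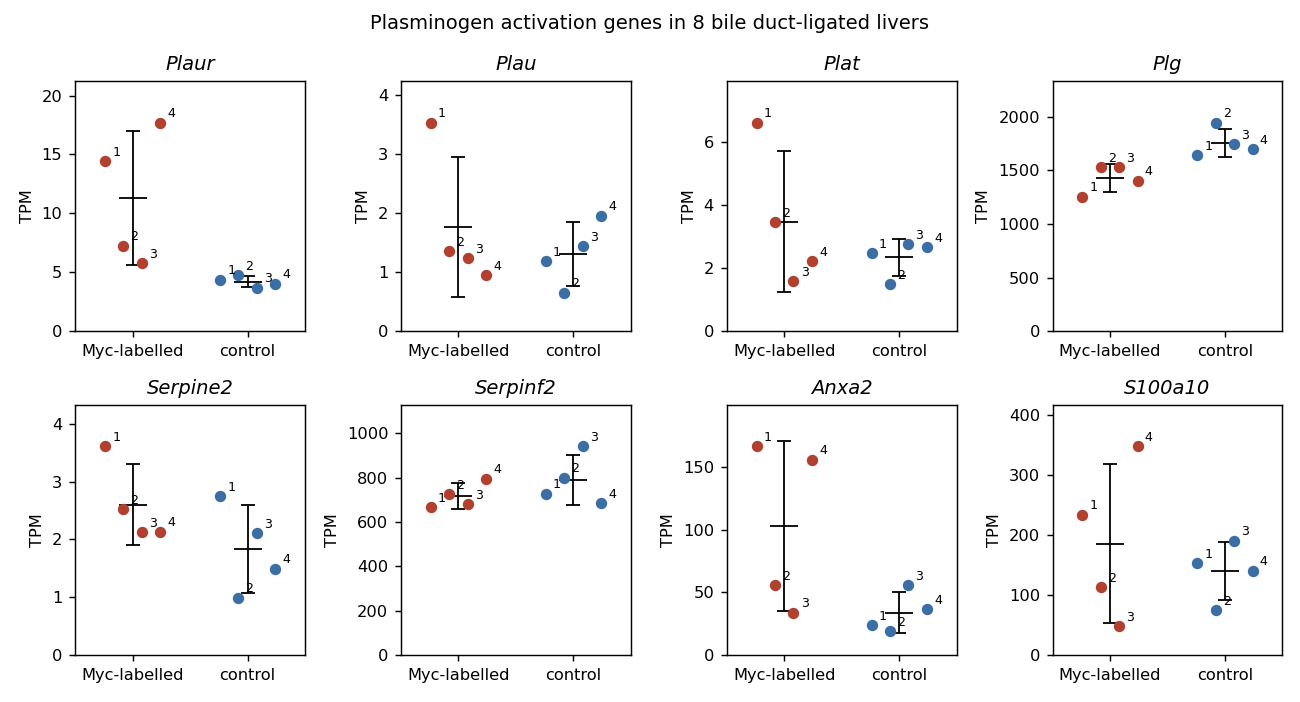
TPM of the 8 plasminogen activation genes, each on its own linear axis from 0, in 4 Myc-labelled libraries (left, red) and 4 control libraries (right, blue). Numbers are replicate numbers and bars are the mean ± SD. Plaur is higher in each Myc-labelled library than in the controls, Plg is lower, and Anxa2 and S100a10 are high in Myc-labelled replicates 1 and 4.

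Plaur (ENSMUSG00000046223.10, chr7:24462484-24475968, plus strand, mm10) encodes the receptor that holds urokinase at the cell surface through a lipid anchor. It stood at 14.4, 7.27, 5.79 and 17.7 TPM in Myc-labelled replicates 1 to 4, against 4.37, 4.75, 3.69 and 4.02 TPM in control replicates 1 to 4. The control values lay close together, and the Myc-labelled ones were widely spread, with replicates 1 and 4 far above replicates 2 and 3. The mean was 11.3 ± 5.70 TPM in Myc-labelled and 4.21 ± 0.456 TPM in control livers (SD, n = 4 each), a ratio of means of 2.69. On the log2(TPM + 1) scale the difference was 1.12 ± 0.30 (SE), with a 95% interval of 0.46 to 1.78. Leaving out 1 library at a time gave 0.88 to 1.36, and leaving out Myc-labelled replicates 1 and 4 together, chosen after seeing the data, gave 0.53.

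Plau (ENSMUSG00000021822.3, chr14:20836660-20843385, plus strand) encodes urokinase, the ligand of that receptor. It stood at 3.54, 1.35, 1.24 and 0.953 TPM in Myc-labelled replicates 1 to 4, against 1.19, 0.655, 1.44 and 1.96 TPM in control replicates 1 to 4. The groups overlapped, and Myc-labelled replicate 1 alone lay above the controls. The log2 difference was 0.21 ± 0.30 (SE; 95% interval -0.44 to 0.86). It was -0.06 on leaving out Myc-labelled replicate 1, so the direction of Plau rests on that library. The receptor thus outnumbered its ligand in TPM in every library, with a Plaur to Plau ratio of 4.09, 5.38, 4.68 and 18.6 in Myc-labelled replicates 1 to 4, against 3.67, 7.25, 2.56 and 2.05 in control replicates 1 to 4. These ratios overlapped, and Myc-labelled replicate 4 stood far above the rest.

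Plat (ENSMUSG00000031538.6, chr8:22757727-22782844, plus strand) encodes tissue plasminogen activator, which cleaves plasminogen mainly at the surface of fibrin. It stood at 6.61, 3.46, 1.59 and 2.22 TPM in Myc-labelled replicates 1 to 4, against 2.48, 1.49, 2.76 and 2.66 TPM in control replicates 1 to 4. The groups overlapped, with Myc-labelled replicates 1 and 2 above all controls and replicates 3 and 4 within them. The log2 difference was 0.31 ± 0.31 (SE; 95% interval -0.38 to 1.0), and without Myc-labelled replicate 1 it was 0.01. Both activator genes were highest in that library. Their ratio, Plau to Plat, was 0.533 ± 0.175 in Myc-labelled and 0.544 ± 0.133 in control livers (SD, n = 4 each), with overlapping values.

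Plg (ENSMUSG00000059481.5, chr17:12378608-12419385, plus strand) encodes plasminogen, the substrate of both activators. It stood at 1252, 1530.2, 1527 and 1403 TPM in Myc-labelled replicates 1 to 4, against 1642, 1943, 1745 and 1695 TPM in control replicates 1 to 4. Every Myc-labelled value lay below every control value. The mean was 1428 ± 131 TPM in Myc-labelled and 1756 ± 131 TPM in control livers (SD, n = 4 each), a ratio of means of 0.813. The log2 difference was -0.30 ± 0.17 (SE), with a 95% interval of -0.67 to 0.07. It was -0.24 to -0.33 on leaving out 1 library at a time and -0.25 to -0.34 under the other scalings. Slc22a3, on the opposite strand, overlaps Plg and averaged 1.96 TPM; the strand setting of the counting is unknown. In whole liver, fewer cells of a type and less RNA per cell cannot be told apart, here or in the results below. Of the 12 hepatocyte markers, 1 had a higher mean in the Myc-labelled libraries, and their summed level was 69674 to 107087 TPM in Myc-labelled and 69575 to 129228 TPM in control livers. Alb, the serum albumin gene, made up most of that sum (73217 TPM in Myc-labelled replicate 2). The centred log2 mean over the 12 markers, in which each gene counts equally, was -0.10, 0.16, -0.05 and -0.39 in Myc-labelled replicates 1 to 4, against 0.18, -0.07, 0.14 and 0.13 in control replicates 1 to 4. Myc-labelled replicate 4, which had the highest Plaur level, was lowest. The part of hepatocyte content in the Plg and Plaur differences was not tested.

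Serpinf2 (ENSMUSG00000038224.12, chr11:75431732-75439591, minus strand) encodes alpha-2-antiplasmin, the fast plasma inhibitor of plasmin. It stood at 666, 726, 680.0 and 795 TPM in Myc-labelled replicates 1 to 4, against 728, 799, 940.4 and 684 TPM in control replicates 1 to 4. The groups overlapped, and the log2 difference was -0.13 ± 0.18 (SE; 95% interval -0.52 to 0.26). Without control replicate 3 it was -0.04. The ratio of Plg to Serpinf2 was the least variable of the 28 ratios between members, with its highest value 1.40 times its lowest. It was 2.0 ± 0.217 in Myc-labelled and 2.25 ± 0.283 in control livers (SD, n = 4 each), and the groups overlapped.

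Serpine2 (ENSMUSG00000026249.10, chr1:79794197-79861180, minus strand) encodes protease nexin-1, a cell-bound serpin that inhibits thrombin, urokinase and tissue plasminogen activator. It stood at 3.61, 2.53, 2.13 and 2.14 TPM in Myc-labelled replicates 1 to 4, against 2.75, 0.989, 2.11 and 1.49 TPM in control replicates 1 to 4. The groups overlapped through control replicate 1. The log2 difference was 0.37 ± 0.24 (SE; 95% interval -0.17 to 0.90), and without control replicate 2 it was 0.21.

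Anxa2 (ENSMUSG00000032231.14, chr9:69453620-69491795, plus strand) encodes annexin A2, a phospholipid-binding protein of the plasma membrane. It stood at 166, 55.8, 33.7 and 156 TPM in Myc-labelled replicates 1 to 4, against 23.9, 19.1, 55.8 and 36.4 TPM in control replicates 1 to 4. Myc-labelled replicates 1 and 4 lay far above the highest control, while replicates 2 and 3 fell within the control range. The mean was 103 ± 68.0 TPM in Myc-labelled and 33.8 ± 16.4 TPM in control livers (SD, n = 4 each). The log2 difference was 1.40 ± 0.56 (SE; 95% interval 0.13 to 2.67), and without Myc-labelled replicates 1 and 4 together it was 0.47. The antisense gene Gm16144 overlaps Anxa2 and averaged 0.141 TPM.

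S100a10 (ENSMUSG00000041959.14, chr3:93555080-93564643, plus strand) encodes the small partner that binds annexin A2 and carries the plasminogen-binding lysines. It stood at 234, 113, 47.8 and 348 TPM in Myc-labelled replicates 1 to 4, against 153, 74.3, 191 and 140.4 TPM in control replicates 1 to 4. The Myc-labelled livers held both the highest and the lowest values of all 8. The log2 difference was 0.13 ± 0.59 (SE; 95% interval -1.21 to 1.48). Its sign rested on single libraries: leaving out Myc-labelled replicate 4 gave -0.29, leaving out Myc-labelled replicate 1 gave -0.10, and leaving out control replicate 2 gave -0.14. Leaving out Myc-labelled replicate 3 gave 0.66. With array weights it was -0.01.

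The balance of Anxa2 to S100a10 separated the groups although the S100a10 levels themselves overlapped widely. Anxa2 TPM divided by S100a10 TPM was 0.711, 0.495, 0.706 and 0.448 in Myc-labelled replicates 1 to 4, against 0.156, 0.257, 0.293 and 0.259 in control replicates 1 to 4. Every Myc-labelled ratio lay above every control ratio, including replicate 3, where both genes were low. The mean ratio was 0.590 ± 0.138 in Myc-labelled and 0.241 ± 0.0590 in control livers (SD, n = 4 each). In the deposited coverage values, the same ratio was 0.314, 0.213, 0.306 and 0.195 in Myc-labelled replicates 1 to 4, against 0.0666, 0.110, 0.126 and 0.112 in control replicates 1 to 4. Coverage and TPM come from the same reads, so the coverage ratio is no second measurement. The Anxa2 to S100a10 ratio was singled out after its values were seen, so no test is given. On the log2(TPM + 1) scale the difference of the differences was 1.27, and leaving out 1 library at a time gave 1.08 to 1.39. Of the 28 ratios between members, 3 did not overlap between groups (10.7%), against 1.69% of the 83353416 ratios between the 12912 tested genes with no value of 0. The others were Plaur to Plg and Plaur to Serpinf2. Plaur to Plg follows from the separate ranges of both genes. Plaur to Serpinf2 divides a gene with separate groups by one whose highest TPM was 1.41 times its lowest. The members were chosen around Plaur with these values known, and their ratios share genes. The shares of 10.7% and 1.69% therefore cannot show whether separate ratios are more frequent among such genes.

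**Figure D2:**
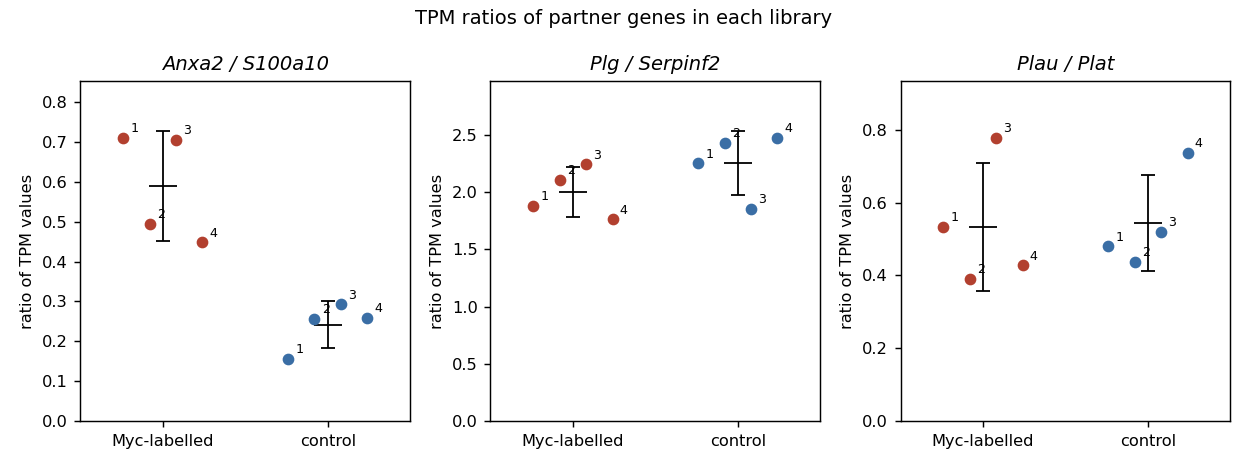
TPM ratios of Anxa2 to S100a10, Plg to Serpinf2 and Plau to Plat in 4 Myc-labelled (left, red) and 4 control libraries (right, blue), on linear axes from 0. Numbers are replicate numbers and bars are the mean ± SD; the Anxa2 to S100a10 ratio is 0.448 to 0.711 in Myc-labelled and 0.156 to 0.293 in control livers, while the other ratios overlap.

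As a group, 6 of the 8 members had a positive difference, and their median log2 difference was 0.26. Over all 13055 genes 58.0% had a positive difference, with a median of 0.04. The differences had no common sign: those of Plg and Serpinf2 were negative and the other 6 positive. Only Plaur and Anxa2 among the 8 had a 95% interval that left out 0, and the Anxa2 groups overlapped.

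Co-variation with Plaur over the 8 libraries was part of the choice of the members and is described without a p. The 8 libraries share the 2 groups, so that a group difference alone contributes to each correlation. Anxa2 had a Pearson r of 0.86 with Plaur on log2(TPM + 1) and a Spearman rho of 0.45, and ranked 142 of 13054 genes by r. That relation rests on Myc-labelled replicates 1 and 4, the libraries farthest from the Plaur median, since without them r was 0.20 over 6 libraries. Within the controls the order differed, since control replicate 3 had the lowest Plaur and the highest Anxa2. With group means removed r was 0.74 for Anxa2 and 0.80 for S100a10, whose r over all libraries was 0.55 (rho 0.26). Without those 2 libraries r was -0.55 for S100a10, so the sign of its relation also rests on them.

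Plg ran opposite to Plaur, with an r of -0.84 and a rho of -0.81. It ranked 13040 of 13054 genes, near the most negative end. Without Myc-labelled replicates 1 and 4 its r was -0.60, and with group means removed it was -0.54. The serpin genes and activators followed Plaur less closely, with r of 0.48 for Serpine2, 0.44 for Plat, 0.28 for Plau and -0.24 for Serpinf2. For the urokinase gene rho with its receptor was -0.17. It stood closest to Plat, with an r of 0.89 and a rho of 0.83 between the activators, both of which were highest in Myc-labelled replicate 1. Anxa2 and S100a10 had an r of 0.74, or 0.93 with group means removed.

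Of 10295 genes that averaged 2 TPM or more and had an established symbol, those with the highest Pearson r to Plaur over the 8 libraries included 9 described here, with r of 0.94 to 0.97. They were Cstb (cystatin B, a cysteine protease inhibitor), Mmp9 (the matrix protease gelatinase B), Wsb2, Mbd2 (a methyl-CpG-binding protein), Spg21, Ralgds (an activator of Ral GTPases), Atp6v1c1 (a subunit of the proton pump of lysosomes), Slc26a11 (an anion transporter) and Pdcd7. Mmp9 stood at 3.83, 1.99, 1.45 and 6.77 TPM in Myc-labelled replicates 1 to 4, against 0.936, 1.34, 1.25 and 1.26 TPM in control replicates 1 to 4. Like Plaur, it was highest in Myc-labelled replicate 4, and its groups did not overlap. Cstb stood at 224, 153, 124 and 265 TPM in Myc-labelled replicates 1 to 4, against 115, 111, 124 and 121 TPM in control replicates 1 to 4, and its groups overlapped. Without Myc-labelled replicates 1 and 4, r with Plaur was 0.58 for Spg21, the lowest of the 9, and 0.93 for Pdcd7, the highest. Of these 9 genes 4 had a window in the promoter table, and 1 of them, Pdcd7, held the AP-1 motif. The genes with the lowest r were Slc43a1 (an amino acid transporter), Urad (an enzyme of urate breakdown), Fam124a, Erbb3 (a receptor tyrosine kinase) and Zhx3, at -0.90 to -0.87.

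**Figure D3:**
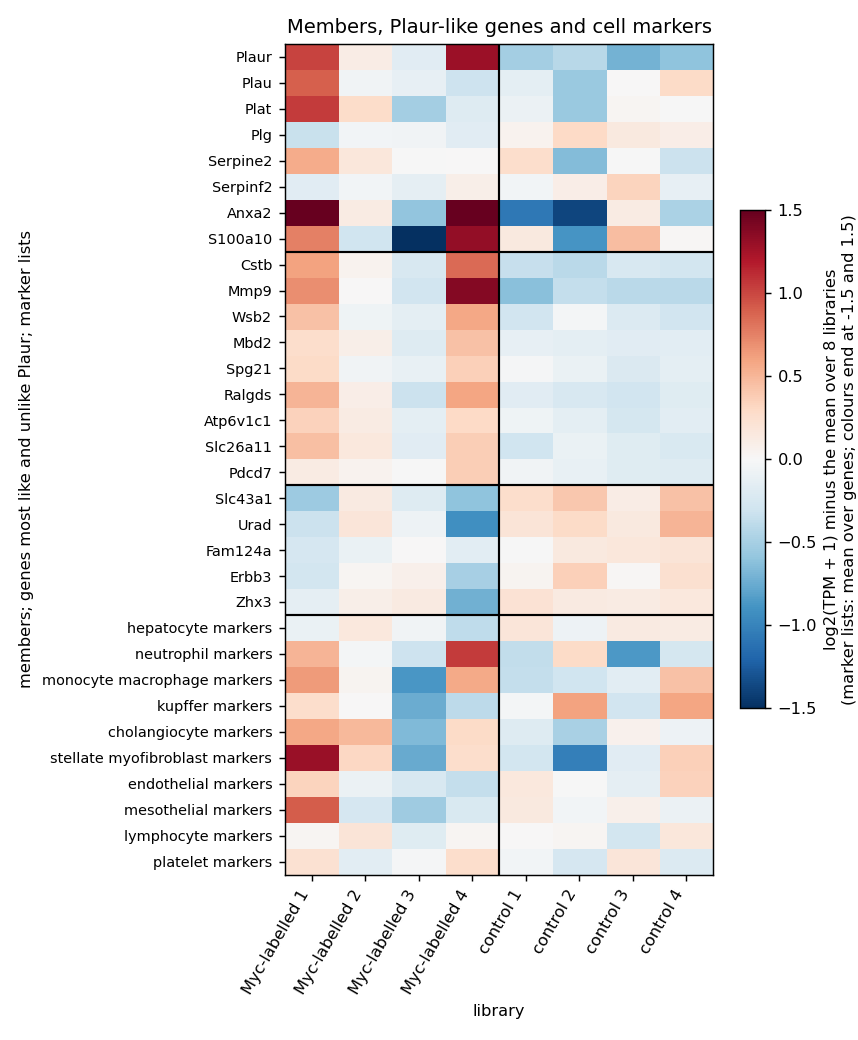
Heat map of log2(TPM + 1) minus its mean over the 8 libraries, with Myc-labelled replicates 1 to 4 left of control replicates 1 to 4. Rows are the 8 members, 9 genes most like and 5 least like Plaur, and 10 cell marker lists as means over their genes; colours end at -1.5 and 1.5. Plaur, Anxa2, Mmp9 and the mean of the neutrophil markers are high in Myc-labelled replicates 1 and 4.

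Several cell markers moved with Plaur and Anxa2. All 10 neutrophil markers had a higher mean in the Myc-labelled livers, while 58.0% of all tested genes had a positive log2 difference. The 10 markers summed to 3830.3 to 6654 TPM in Myc-labelled and 2990.2 to 6403 TPM in control livers. The acute-phase gene Lcn2, which hepatocytes also express, made up most of that sum (6626 TPM in Myc-labelled replicate 3). The centred log2 mean over the 10 markers, in which each gene counts equally, was 0.51, -0.03, -0.31 and 1.04 in Myc-labelled replicates 1 to 4, against -0.37, 0.28, -0.86 and -0.27 in control replicates 1 to 4. Myc-labelled replicates 4 and 1 were thus highest, as for Plaur, though control replicate 2 exceeded Myc-labelled replicates 2 and 3 in markers and not in Plaur. S100a9, a cytosolic protein abundant in neutrophils, stood at 30.02, 21.8, 8.76 and 73.9 TPM in Myc-labelled replicates 1 to 4, against 8.50, 31.9, 3.59 and 8.91 TPM in control replicates 1 to 4. The neutrophil surface gene Ly6g was listed at 0 in 5 of 8 libraries. Mmp9 is among these markers. Lcn2 itself differed little, with means of 5082 TPM in Myc-labelled and 5002 TPM in control livers. Outside this list, the leukocyte migration receptors Fpr1 and Fpr2 had lower means in the Myc-labelled livers, as given below. Monocyte and macrophage markers had a higher mean in 8 of 12 genes, and summed to 320.2 to 1578 TPM in Myc-labelled and 495 to 731 TPM in control livers. The highest of these sums, in Myc-labelled replicate 4, held 939 TPM of Spp1, which is also a cholangiocyte marker. The centred log2 mean of the list was 0.63, 0.04, -0.87 and 0.57 in Myc-labelled replicates 1 to 4. In control replicates 1 to 4 it was -0.36, -0.30, -0.16 and 0.44. Myc-labelled replicate 3 was thus lowest of all, and control replicate 4 exceeded Myc-labelled replicates 2 and 3. The part of these cells in the Plaur and Anxa2 differences was not tested.

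Stellate cell and myofibroblast markers had a higher mean in 12 of 12 genes, with summed levels of 74.8 to 405 TPM in Myc-labelled and 64.6 to 214 TPM in control livers. Their centred log2 mean was 1.29, 0.31, -0.75 and 0.27 in Myc-labelled replicates 1 to 4, against -0.28, -1.03, -0.17 and 0.36 in control replicates 1 to 4. Myc-labelled replicate 1 was thus highest, and control replicate 4 exceeded Myc-labelled replicates 2, 3 and 4. Cholangiocyte markers had a higher mean in 8 of 9 genes, with sums of 121 to 974 TPM in Myc-labelled and 103 to 327 TPM in control livers. Spp1, which is also in the monocyte and macrophage list, made up most of the cholangiocyte sum. It stood at 939 TPM in Myc-labelled replicate 4, where the sums of both lists were highest. The centred log2 mean of the cholangiocyte markers was 0.58, 0.49, -0.66 and 0.29 in Myc-labelled replicates 1 to 4, against -0.20, -0.49, 0.06 and -0.07 in control replicates 1 to 4. That order follows Anxa2 in part: Myc-labelled replicates 1 and 4 were above all controls in both. Platelet markers had a higher mean in 4 of 5 genes and summed to 8.70 to 20.7 TPM in Myc-labelled and 5.70 to 19.9 TPM in control livers, with Gp9 listed at 0 in 3 libraries. Their centred log2 mean was 0.23, -0.15, -0.02 and 0.27 in Myc-labelled replicates 1 to 4, against -0.04, -0.26, 0.19 and -0.21 in control replicates 1 to 4. As for Anxa2, Myc-labelled replicates 1 and 4 were highest and control replicate 3 was the highest control. Of these markers, Ppbp, Gp1bb and Gp9 averaged 0.470, 0.0902 and 0.166 TPM, below the filter of 1 TPM. Itga2b averaged 3.21 TPM in Myc-labelled and 3.19 TPM in control livers, so the platelet order rests largely on Pf4 and on genes near 0. The part of these cells in the Plaur, Anxa2 and S100a10 values was not tested.

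Xist, the RNA of the inactive X chromosome, split the libraries into 5 with at least 32.8 TPM and 3 with at most 0.0574 TPM, and each class held both groups. The Plaur log2 difference was 1.07 in the first class (2 Myc-labelled, 3 control libraries) and 1.26 in the second (2 Myc-labelled, 1 control library). For Plg it was -0.34 and -0.25, and for Anxa2 1.88 and 0.38. The Plat difference had opposite signs, 0.88 in the first class and -0.38 in the second, as had Plau (0.57 and -0.22) and S100a10 (0.47 and -0.56). With 1 control library in the second class, the difference between classes was not tested.

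Beyond the members, 53 genes of 5 related lists were examined in the same limma fit, of which 50 passed the filter. None reached an adjusted p of 0.05 over all 13055 genes, 0 higher and 0 lower, and 3 (S100a4, S100a11 and Thbs1) were under 0.05 without adjustment. In none of the 50 were the groups separate. Their median log2 difference was 0.06, against 0.04 over all genes. All adjusted p-values of these genes were 1.0 when rounded.

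Of 13 ligands, co-receptors and clearance receptors of the urokinase receptor, 7 had a positive and 6 a negative difference, with a median of 0.08. The integrin subunit gene Itgav, whose protein pairs with the urokinase receptor on vitronectin, averaged 7.22 ± 2.34 TPM in Myc-labelled and 5.21 ± 0.870 TPM in control livers (log2 difference 0.37 ± 0.22, SE). Fpr1 and Fpr2, formyl peptide receptors that act with it in leukocyte migration, had negative differences. Fpr1 averaged 5.46 ± 1.39 TPM in Myc-labelled and 7.70 ± 2.45 TPM in control livers, and Fpr2 3.66 ± 2.31 TPM in Myc-labelled and 5.43 ± 3.45 TPM in control livers (log2 differences -0.41 ± 0.24 and -0.39 ± 0.46, SE).

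Of 9 other plasminogen-binding proteins and relatives of the annexin A2 tetramer, 6 had a positive and 3 a negative difference, with a median of 0.07. Of the 3 calcium-binding S100 genes in this list, S100a4 and S100a11 had larger differences than S100a6 (0.18 ± 0.41, SE). S100a4 stood at 12.5, 6.92, 3.34 and 17.9 TPM in Myc-labelled replicates 1 to 4, against 6.79, 0.539, 4.04 and 2.18 TPM in control replicates 1 to 4 (log2 difference 1.38 ± 0.58, SE). S100a11 stood at 210.5, 91.7, 81.9 and 167 TPM in Myc-labelled replicates 1 to 4, against 67.7, 73.5, 108 and 60.8 TPM in control replicates 1 to 4 (log2 difference 0.74 ± 0.31, SE). Both were highest in Myc-labelled replicates 1 and 4, as Anxa2 was, and both groups overlapped. Annexin A1 (Anxa1) averaged 10.5 ± 4.59 TPM in Myc-labelled and 7.87 ± 1.70 TPM in control livers, while the plasminogen receptor Plgrkt had a log2 difference of 0.07 ± 0.24 (SE).

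Of 11 further protease inhibitors 9 were tested, Serpinb2 and Serpini1 being below the filter, and 6 had a positive and 3 a negative difference, with a median of 0.03. Pzp, an abundant plasma alpha-macroglobulin of the mouse, averaged 1862 ± 653 TPM in Myc-labelled and 1496 ± 331 TPM in control livers. A2m, its relative, stood at 3.94, 0.741, 32.5 and 2.17 TPM in Myc-labelled replicates 1 to 4, against 3.46, 0.288, 0.331 and 0.590 TPM in control replicates 1 to 4, so that 1 library set its mean. The C1 inhibitor gene Serping1 averaged 1021 ± 62.4 TPM in Myc-labelled and 1151 ± 234 TPM in control livers.

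Of 9 genes listed as proteases and cofactors around urokinase and plasminogen activation, 4 had a positive and 5 a negative difference, with a median of -0.07. Hpn, the hepatocyte membrane protease hepsin, averaged 414 ± 31.5 TPM in Myc-labelled and 490.5 ± 30.3 TPM in control livers (log2 difference -0.24 ± 0.16, SE). Its values overlapped through Myc-labelled replicate 2. Hgfac, the activator of hepatocyte growth factor, averaged 116 ± 25.0 TPM in Myc-labelled and 136 ± 19.7 TPM in control livers, and coagulation factor XI (F11) 58.6 ± 7.88 TPM in Myc-labelled and 47.6 ± 15.0 TPM in control livers.

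Of 11 plasmin substrates and kringle ligands 10 were tested, with 6 positive and 4 negative differences and a median of 0.18. Thbs1, the matrix protein thrombospondin 1, had the largest difference among tested genes of this list, at 13.3, 6.12, 3.55 and 12.2 TPM in Myc-labelled replicates 1 to 4, against 1.66, 1.39, 4.92 and 3.14 TPM in control replicates 1 to 4 (log2 difference 1.32 ± 0.41, SE). Hrg, a plasma glycoprotein that binds plasminogen, averaged 2033 ± 223 TPM in Myc-labelled and 2978 ± 822 TPM in control livers (log2 difference -0.51 ± 0.24, SE). F13a1, the fibrin cross-linking subunit made by macrophages and platelets, averaged 3.42 ± 1.69 TPM in Myc-labelled and 2.07 ± 1.23 TPM in control livers. The fibrinogen chain genes Fga, Fgb and Fgg, the precursors of fibrin, had log2 differences of 0.23 ± 0.48, 0.16 ± 0.47 and 0.20 ± 0.47 (SE).

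**Figure D4:**
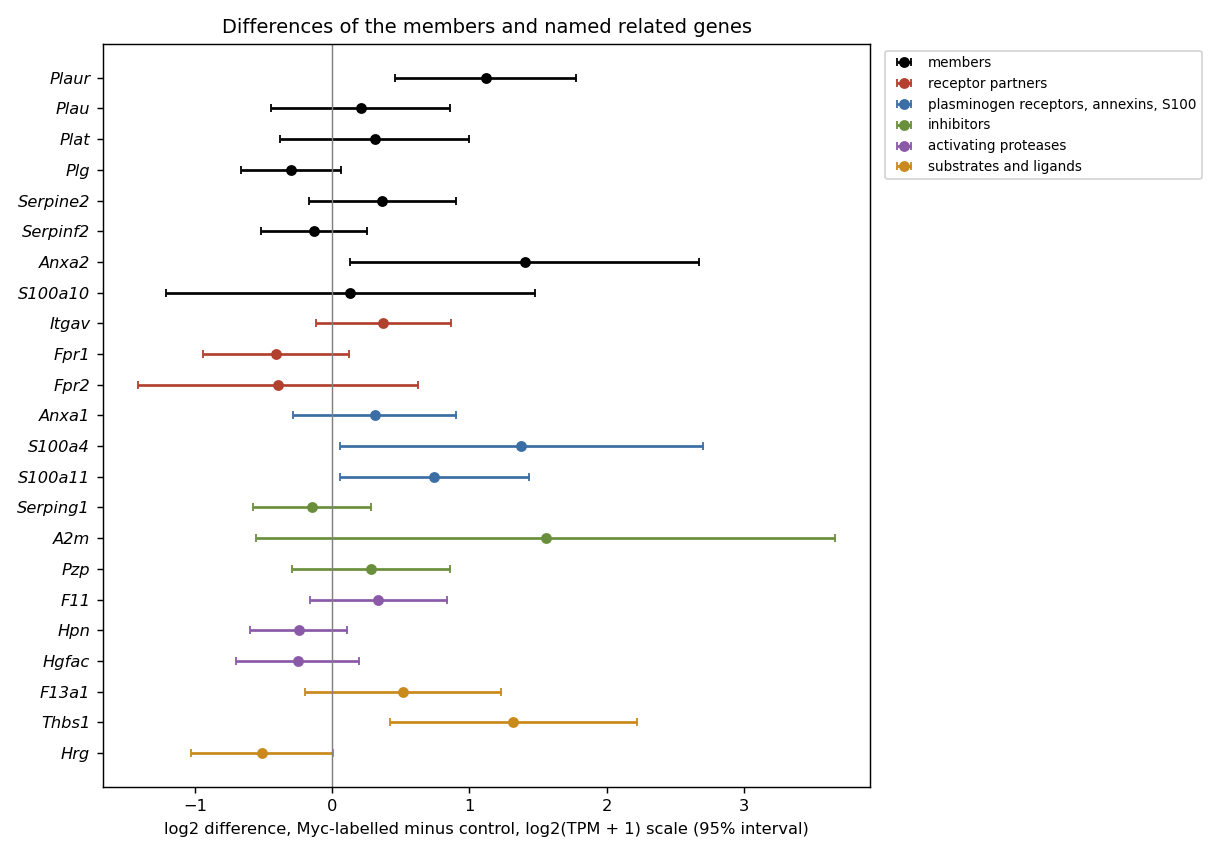
Log2 differences, Myc-labelled minus control, on the log2(TPM + 1) scale with 95% intervals from the limma fit over 13055 genes, for the 8 members (black) and 15 related genes (coloured by list), n = 4 libraries per group. Plaur and Anxa2 among the members and S100a4, S100a11 and Thbs1 among the related genes have intervals above 0, and none of these related genes passes after adjustment over all genes.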

How the data were processed

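Reads were aligned by HISAT2 to mm10 and assembled into gene levels by StringTie, per the submitters' processing notes; versions, annotation and strand setting are not stated. The authors deposited TPM, whose total is 1000000 per library. Per the file headers, FPKM and coverage stand beside TPM. The deposited coverage is a signal without depth scaling. TPM keeps no read depth, and the counting error of low genes such as Plau is not given here. Fold coverage, worked back from FPKM and aligned bases, was 2.0 to 9.5 for Plau over the 8 libraries. It was 3.0 to 9.7 for Serpine2 and 4.6 to 17.8 for Plat. Of the gene IDs, 98.3% matched GENCODE M21, and the coordinates of the 8 members were identical.

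Repeated rows (10 to 15 per library) were summed. Aligned bases are the most frequent ratio of coverage to FPKM, on the assumption that StringTie divides by aligned bases. Genes averaging 1 TPM or more were fitted in R 4.3.3 on log2(TPM + 1), using limma 3.58.1 with a trend and robust variance, two-sided, and Benjamini-Hochberg adjustment over all genes. The fit was tested on simulated data. The pseudocount of 1 understates changes of low genes. Other steps used numpy 2.4.6, pandas 2.3.3 and scipy 1.17.1 under Python 3.11.15.

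The members and lists were chosen with earlier results of these data known. Named genes were every member, the 3 largest differences per related list among genes averaging 2 TPM or more, the 10 highest and 5 lowest by r with Plaur, and Myc. Plgrkt, S100a6, the fibrinogen genes and single markers were added after their values were seen. Marker lists covered 10 cell types. A gene that the rule on r would name and a marker gene are not reported here. Alternatives varied the pseudocount, filter, scaling, unit, variance model, array weights, replicate block and libraries. No library duplicated another: at most 0.0996% of tested genes had equal values in a pair.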

Additional observations from a re-analysis of the deposited data

Results flagged for a closer look

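In groups of 4 libraries, a value was singled out when its gap to the nearest other value exceeded Dixon's 95% limit as a share of the group's range. Of 52 groups examined among the members, named related genes and 3 ratios, 7 were singled out, and chance alone flags about 1 in 20 groups. Plau in Myc-labelled replicate 1 stood at 3.54 TPM, with the nearest Myc-labelled value at 1.35 TPM. The Plaur to Plau ratio in Myc-labelled replicate 4 was 18.6, with the nearest Myc-labelled value at 5.38. A2m stood at 32.5 TPM in Myc-labelled replicate 3 (nearest 3.94 TPM) and at 3.46 TPM in control replicate 1 (nearest 0.590 TPM). Hpn stood at 460.8 TPM in Myc-labelled replicate 2 (nearest 401 TPM), Hgfac at 165 TPM in control replicate 4 (nearest 129 TPM) and F13a1 at 3.91 TPM in control replicate 3 (nearest 1.66 TPM).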

How the results depend on the processing

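Of 318 recomputed values, 312 stayed within the spread between libraries. For r the limit was its jackknife error over libraries, and for counts of genes 1.5 times. Much of that count was fixed in advance and is no measure of robustness. Leaving out 1 library cannot move a difference beyond that spread, and the error of r is built from the same omissions. Changing the filter or variance model leaves a member's difference unchanged. Some of the 312 changed sign, such as r of Plau with Plaur, at -0.36 without Myc-labelled replicate 1. The remaining 6 values moved further. Array weights put 1 gene past the threshold on the lower side, against 0 otherwise. The other 5 came from leaving out Myc-labelled replicates 1 and 4 together, chosen after seeing the data: the log2 difference was 0.53 for Plaur and 0.47 for Anxa2, and r with Plaur was -0.60 for Plg, 0.20 for Anxa2 and -0.55 for S100a10. The same omission gave -0.84 for the S100a10 difference. The cause was not tested. Leaving out 1 library at a time, log2 differences ranged from 0.88 to 1.36 for Plaur, -0.06 to 0.35 for Plau, 0.01 to 0.53 for Plat, -0.33 to -0.24 for Plg, 0.21 to 0.51 for Serpine2, -0.19 to -0.04 for Serpinf2, 1.08 to 1.83 for Anxa2 and -0.29 to 0.66 for S100a10. Over the same omissions, r with Plaur ranged from -0.36 to 0.69 for Plau, -0.02 to 0.76 for Plat, -0.91 to -0.76 for Plg, 0.22 to 0.65 for Serpine2, -0.55 to 0.11 for Serpinf2, 0.79 to 0.95 for Anxa2 and 0.25 to 0.70 for S100a10. The median difference of all genes was 0.04, but leaving out Myc-labelled replicate 3 gave 0.11, and leaving out Myc-labelled replicate 1 gave -0.04. A minimum of 5 TPM gave no value for Plau, Plat and Serpine2. With the replicate block, which cannot change a difference in this balanced design (Plaur 1.12), 0 genes passed the threshold. Same-numbered libraries deviated together with r of -0.06 to 0.13, and not every library correlated best with its own number. Over all combinations of numbers r was -0.21 to 0.22, and values this low cannot show whether the numbers pair the mice.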

Other observations

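The marker lists not set beside a member above are given here. Kupffer cell markers had a higher mean in 0 of 8 genes, and summed to 636 to 1175 TPM in Myc-labelled and 806 to 1690.3 TPM in control livers. Endothelial markers, of the cell type in which the labels place the Myc overexpression and which also makes plasminogen activators, had a higher mean in 3 of 12 genes and summed to 176 to 293 TPM in Myc-labelled and 213 to 310.4 TPM in control livers. Mesothelial markers had a higher mean in 4 of 6 genes and summed to 503 to 1524 TPM in Myc-labelled and 303 to 979 TPM in control livers. The keratin gene Krt8 made up most of that sum (1515.5 TPM in Myc-labelled replicate 4), while Msln and Upk1b had lower means in the Myc-labelled livers. Lymphocyte markers had a higher mean in 5 of 9 genes and summed to 1.26 to 4.30 TPM in Myc-labelled and 0.447 to 4.20 TPM in control livers.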
